A study of Rattus norvegicus with 10 samples.

Results

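The carriers described here take bile acids and organic anions, cations and zwitterions across the plasma membrane, and comprise the solute carrier families Slco, Slc22a, Slc10a and Slc47a. A probe belonged to the set if its accession led to a gene symbol of 1 of these 4 families, whatever its signal. This gave 45 probes for 39 genes, of 13438 genes with a symbol on the array: 14 Slco genes, 17 Slc22a genes, 7 Slc10a genes and 1 Slc47a gene. Of the 39 genes, 27 had a probe well above background on every array of at least 1 group, and the other 12 are called dim below. The gene table holds 50 symbols of these families, and the 11 without a matched probe, Slc22a7 and Slc47a2 among them, were not analysed here. A gene was read from its brightest probe, and 6 genes had 2 probes.

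RNA came from the livers of 10 male Wistar rats, 1 array per rat, taken 24 h after irradiation. The control group held 3 untreated rats (0 Gy). The TBI group held 3 rats that received total-body irradiation from a cobalt source, with a dose of 6.5 Gy on the sample labels. The paper's text differs from the labels in that dose. The MASM + TBI group held 4 rats given MASM, a synthetic derivative of the plant alkaloid matrine, into the stomach at 30 mg/kg a day for 3 days before the same irradiation. No array of rats given MASM without irradiation was analysed here, so the compound was seen only in irradiated livers.

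In the liver, uptake carriers of the basolateral (sinusoidal) membrane of hepatocytes draw bile acids, hormones, drugs and toxins from portal blood, and export pumps of the canalicular membrane pass them into bile. The sodium-dependent carrier Slc10a1 (NTCP) brings back most conjugated bile acids, while the Slco carriers (organic anion transporting polypeptides) work without sodium and take a wide range of anions. The Slc22a family holds organic cation, carnitine and organic anion transporters, and Slc47a carriers exchange organic cations for protons.

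The irradiation labels were checked first. Cdkn1a, a p53 target that radiation is known to induce, read 8.01 to 8.84 on the log2 scale in control rats, 13.47 to 14.06 in TBI rats and 12.80 to 13.58 in MASM + TBI rats. The irradiated groups overlapped, so this check cannot show which irradiated rats had MASM. The hepatocyte markers (Alb, Ttr, Apoa1, Cps1, Tat, Cyp2e1, Serpina1) were all well above background, and 0 of 7 passed the adjusted test in any comparison, with 3 (TBI against control), 4 (MASM + TBI against control) and 0 (MASM + TBI against TBI) at an unadjusted p under 0.05, which 23.5%, 16.9% and 17% of all probes reached. Among other cell markers, 3 of 5 lymphocyte genes (Cd3g, Cd79b, Cd3e) and 1 of 4 stellate cell genes (Lrat) fell in both irradiated groups against control, although Cd3e was well above background on no array and its fall lay between signals that do not count as detected. Of the rest, 0 of 3 cholangiocyte, 0 of 4 sinusoidal endothelium and 0 of 5 Kupffer cell genes passed in any comparison, with 1, 2 and 0 (TBI against control), 0, 2 and 0 (MASM + TBI against control) and 1, 0 and 4 (MASM + TBI against TBI) at an unadjusted p under 0.05. Of all probes, 5.63%, 2.99% and 1.62% passed the adjusted test in these comparisons. All 5 Kupffer cell genes had lower means in MASM + TBI than in TBI, among them Csf1r (-1.10, adjusted p = 0.156), Cd68 (-0.89, 0.138) and Marco (-0.86, 0.231), and their summed linear signal was 46650 to 66180 in control, 45970 to 85740 in TBI and 36540 to 45430 in MASM + TBI rats. The part of these cells in the carriers' differences between the irradiated groups was not tested. The Lrat call in TBI was lost with the replicate number as a block (adjusted p = 0.0637) and that in MASM + TBI without MASM + TBI rat 1, and the methods' t-test called 0 genes of any list after adjustment, but only 10, 40 and 4 of all 41012 probes in the 3 comparisons in turn. In whole liver, fewer cells of a type and less RNA per cell cannot be told apart. TBI arrays had 64.1% to 70.1% of their spots well above background, against 57.2% to 59.9% on control arrays and 56.2% to 60.2% on MASM + TBI arrays. The arrays lay on 3 slides. MASM + TBI rat 3 shared slide 1 with all control rats, the other MASM + TBI rats lay on slide 3, and TBI rats were alone on slide 2. In both comparisons with TBI rats, treatment and slide therefore cannot be told apart.

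Promoters of 5 carriers are shown, each from 250 bases before to 50 bases after the gene's start. Slc10a1 and Slco1b2 are the main hepatocyte bile acid and organic anion carriers, Slco2a1 and Slc22a17 are the 2 carriers that passed the adjusted test in TBI against control, and Slc22a15 has a second, dimmer probe that passed it in MASM + TBI against control. Capitals mark letters of 3 short motifs, which were searched on both strands. The C/EBP letters TTGCNNAA bind factors of that family, which hepatocytes hold. The E-box was spelled CACGTG, and the TATA box was searched with the letters TATAAA.
Slc10a1: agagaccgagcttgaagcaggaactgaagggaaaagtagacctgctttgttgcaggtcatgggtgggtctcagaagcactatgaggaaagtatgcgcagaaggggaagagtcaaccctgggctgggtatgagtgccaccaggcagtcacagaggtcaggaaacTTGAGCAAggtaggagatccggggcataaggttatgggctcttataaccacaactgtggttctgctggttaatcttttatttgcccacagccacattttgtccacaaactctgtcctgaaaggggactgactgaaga
Slco1b2: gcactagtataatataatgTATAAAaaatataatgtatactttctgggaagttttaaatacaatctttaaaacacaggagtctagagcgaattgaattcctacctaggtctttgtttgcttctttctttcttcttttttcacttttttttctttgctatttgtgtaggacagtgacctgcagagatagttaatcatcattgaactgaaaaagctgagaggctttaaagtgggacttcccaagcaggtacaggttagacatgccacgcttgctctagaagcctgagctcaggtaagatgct
Slco2a1: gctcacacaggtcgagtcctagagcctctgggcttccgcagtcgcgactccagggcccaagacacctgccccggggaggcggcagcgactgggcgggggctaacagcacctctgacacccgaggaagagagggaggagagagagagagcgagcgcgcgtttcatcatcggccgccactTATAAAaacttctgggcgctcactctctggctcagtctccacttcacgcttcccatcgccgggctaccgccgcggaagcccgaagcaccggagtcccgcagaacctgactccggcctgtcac
Slc22a17: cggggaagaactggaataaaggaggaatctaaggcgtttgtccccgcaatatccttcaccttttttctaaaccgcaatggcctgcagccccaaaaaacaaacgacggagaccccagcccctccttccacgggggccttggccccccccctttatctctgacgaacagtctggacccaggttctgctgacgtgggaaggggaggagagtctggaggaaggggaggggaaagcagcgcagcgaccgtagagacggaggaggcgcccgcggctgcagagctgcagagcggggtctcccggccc
Slc22a15: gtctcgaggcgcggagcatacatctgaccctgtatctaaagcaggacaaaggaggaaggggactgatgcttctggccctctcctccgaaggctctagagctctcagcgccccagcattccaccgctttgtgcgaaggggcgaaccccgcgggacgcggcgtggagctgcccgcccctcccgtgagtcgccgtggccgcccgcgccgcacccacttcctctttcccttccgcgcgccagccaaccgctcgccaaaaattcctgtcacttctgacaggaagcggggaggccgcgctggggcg
The sequences are from RefSeq on the build GRCr8, 5′ to 3′ along the gene, at chr6:106357895-106358194 on the minus strand for Slc10a1, chr4:176282334-176282633 on the plus strand for Slco1b2, chr8:112467489-112467788 on the plus strand for Slco2a1, chr15:32358731-32359030 on the minus strand for Slc22a17 and chr2:192047311-192047610 on the minus strand for Slc22a15. The Slc10a1 promoter holds the C/EBP letters, read on the other strand, and the Slco1b2 promoter holds TATAAA. The Slco2a1 promoter holds TATAAA too, and those of Slc22a17 and Slc22a15 hold none of the 3 motifs. Of the 32 carriers with a promoter in the table, 6 held the C/EBP letters, 18.8%, beside 10.6% of 33469 promoters of the same length. The E-box was in 3 carriers (9.38% beside 6.42%) and the TATA box in 4 (12.5% beside 14.2%). These matches describe letters in a window and nothing about binding.

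Between TBI and control rats, which differed in irradiation and in slide, 2 of 39 carriers passed the adjusted test, and both fell. They were Slco2a1, the prostaglandin transporter, and Slc22a17, a receptor for lipocalin-2. The background was 5.63% of all 41012 probes, so the carriers' share was close to that of the array. The methods' threshold was a fold change of 1.5 or more at an unadjusted p below 0.05, and 5 of 39 passed it (Slc10a6, Slc47a1 and Slco5a1 higher, Slco2a1 lower, and Slc22a12 lower by its brighter probe, with the other probe the opposite way), beside 12.6% of all probes. The median log2 difference of the 39 carriers was -0.05, beside -0.03 over all probes. Without TBI rat 3 the adjusted count was 6 (beside 6.8% of all probes in that fit), without control rat 2 or 3 it was 0, and without control rat 1, TBI rat 2, MASM + TBI rat 1 or MASM + TBI rat 2 it was 1. Control and TBI rats of the same replicate number deviated together, and with that number as a block 0 carriers passed, beside 2.57% of all probes in that fit, with 11 having an unadjusted p below 0.05, beside 21.8%. By the methods' t-test the count was 0 after adjustment (beside 0.0244% of all probes) and 8 unadjusted (15.1% of all probes). TBI rats lay alone on slide 2, and with the slide as a random block 9 carriers passed, beside 16.4% of all probes in that fit.

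Between MASM + TBI and control rats 0 of 39 carriers passed the adjusted test in limma (background 2.99%), with 4 at an unadjusted p under 0.05 (16.9% of all probes), and the methods' t-test also gave 0 after adjustment, with 3 unadjusted (14.4% of all probes). None passed the study's threshold, beside 8.06% of all probes, although the count was 1 without control rat 2 or 3, TBI rat 1 or 2 or MASM + TBI rat 2. Leaving out MASM + TBI rat 3 gave 2, and MASM + TBI rat 4 gave 3. The adjusted count was 1 without TBI rat 3 (Slc22a17). MASM + TBI and TBI rats differed in MASM and in slide. Between them 0 of 39 passed the adjusted test in limma (background 1.62%), with 8 at an unadjusted p under 0.05 (17% of all probes). The methods' t-test gave 0 after adjustment and 5 unadjusted (11.7% of all probes). At the study's threshold 3 passed (Slco4c1 higher, Slco4a1 and Slco5a1 lower), beside 7.97% of all probes. This count was 1 without TBI rat 2 and 5 without TBI rat 3, and the adjusted count was 3 without TBI rat 3, beside 3.08% of all probes in that fit. Across the 3 groups the moderated F test again gave Slco2a1 and Slc22a17, 2 of 39 beside 5.65% of all probes, the replicate number as a block gave 0, and leaving out single rats gave 0 (without control rat 2 or 3, TBI rat 2 or MASM + TBI rat 1, 2 or 3), 1 (without control rat 1 or MASM + TBI rat 4) or 5 (without TBI rat 3). These comparisons share groups of rats and are not independent of each other.

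Of the 27 carriers well above background, the 95% interval of the difference lay wholly within 1.5-fold in either direction for 10 in TBI against control, for 13 in MASM + TBI against control and for 13 in MASM + TBI against TBI. In the plot of differences these are the carriers whose whole line stays between the dotted lines, such as Slc22a18, Slc10a3, Slc22a23 and Slco1b2. For the others, Slco2a1 among them in TBI against control, the interval reached past 1.5-fold in at least 1 direction.

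**Figure D1:**
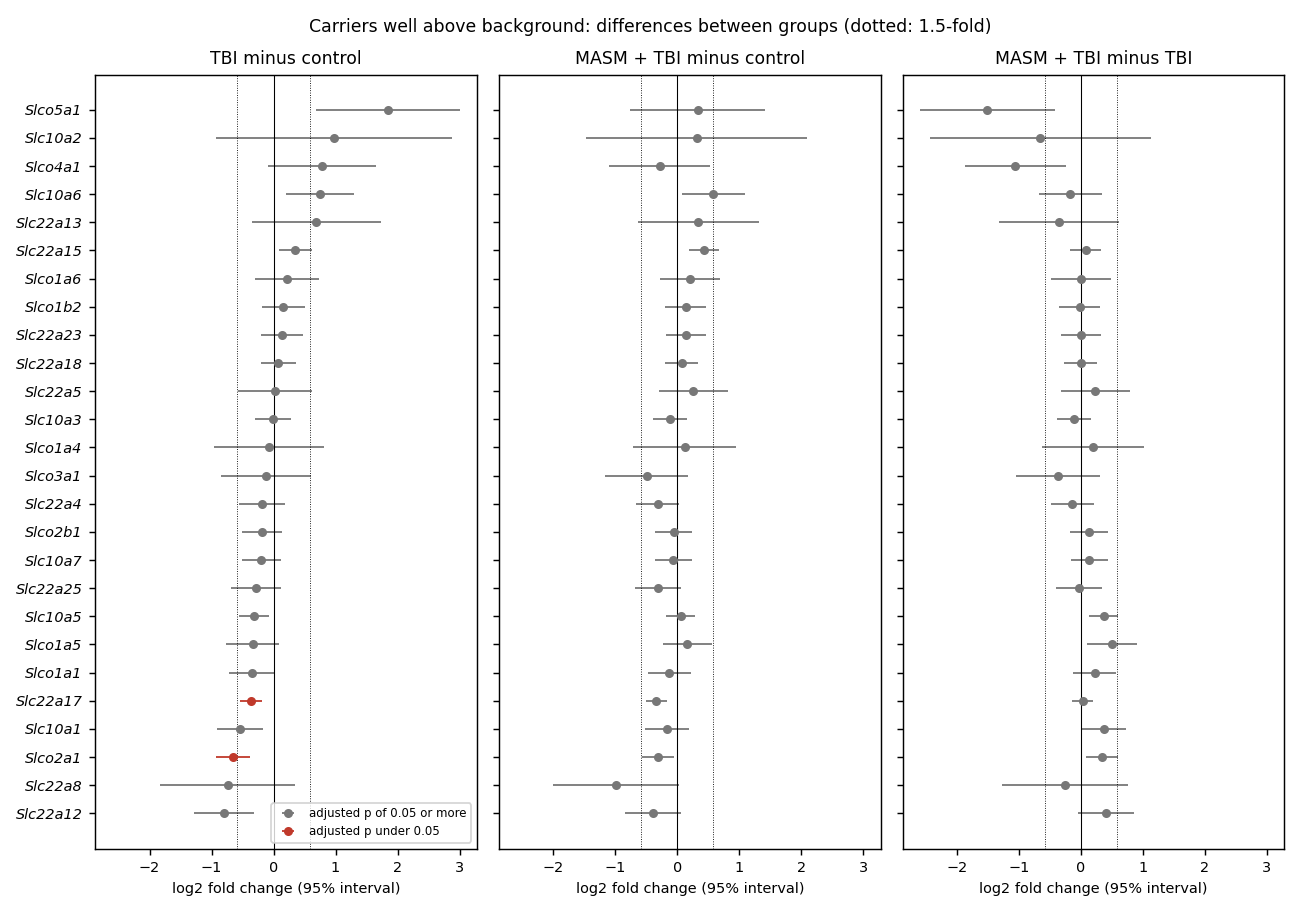
Log2 fold change (x axis) of 26 carriers well above background (y axis, ordered by TBI minus control) in the 3 comparisons, each point with its 95% interval from limma on 10 rats. Red marks an adjusted p under 0.05, which Slco2a1 (-0.66) and Slc22a17 (-0.37) reached in TBI minus control, and the dotted lines mark a 1.5-fold change.

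The sinusoidal bile acid and organic anion carriers come first. For Slc10a1 the log2 signal read 14.66, 14.42 and 14.61 in control rats 1 to 3, 13.84, 13.83 and 14.38 in TBI rats 1 to 3, and 14.54, 14.32, 14.50 and 14.22 in MASM + TBI rats 1 to 4. All TBI rats lay below all control rats, with TBI rat 3 only just below, and the MASM + TBI rats overlapped both other groups. The difference between TBI and control was -0.54 (SE 0.16, 95% interval -0.92 to -0.17, a ratio of 0.686), which did not pass after adjustment (adjusted p = 0.0968). Against TBI the MASM + TBI rats differed by 0.38 (0.02 to 0.73, adjusted p = 0.264) and against control by -0.17 (-0.52 to 0.19). Without TBI rat 3 the difference between TBI and control was -0.73 and passed (adjusted p = 0.0181).

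Slco1a1, an organic anion and bile acid carrier of hepatocytes, read 12.00, 11.92 and 11.57 in control rats, 11.40, 11.27 and 11.77 in TBI rats and 11.76, 11.53, 11.83 and 11.69 in MASM + TBI rats. TBI rats 1 and 2 were the lowest of all, and TBI rat 3 lay among the controls. TBI differed from control by -0.35 (SE 0.16, adjusted p = 0.234), and MASM + TBI from control by -0.13 (adjusted p = 0.769). Slco1a4, which also carries cardiac glycosides, read 11.54, 11.06 and 10.52 in control rats, 10.48, 10.58 and 11.83 in TBI rats and 11.25, 10.81, 11.41 and 11.17 in MASM + TBI rats. TBI rat 3 was the highest rat of the study and TBI rat 1 the lowest, so the group mean hides a range as wide as that of all rats, and the 3 groups differed by at most 0.20 (adjusted p at least 0.827). The second probe of Slco1a4 followed the first over the 10 rats (r = 0.956).

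Slco1b2, the liver-specific organic anion carrier, read 14.07, 14.13 and 13.66 in control rats, 14.14, 14.13 and 14.06 in TBI rats and 13.95, 14.24, 13.89 and 14.28 in MASM + TBI rats. Its groups overlapped, and TBI differed from control by 0.16 (-0.19 to 0.51, adjusted p = 0.567). Slco2b1, which takes steroid sulfates, read 10.24, 10.33 and 10.47 in control rats, 10.15, 9.99 and 10.32 in TBI rats and 10.17, 10.44, 10.48 and 10.05 in MASM + TBI rats. Its groups overlapped too, with -0.19 between TBI and control (adjusted p = 0.459). Its dimmer probe differed by -0.62 in TBI (adjusted p = 0.42) and by -0.47 in MASM + TBI (0.645) against control, with an SD of 0.57 (n = 3) among control rats, and followed the brighter over the rats with r = 0.653. Slco1a5 had a mean of 7.59 ± 0.15 (SD, n = 3) in control, 7.25 ± 0.35 (n = 3) in TBI and 7.75 ± 0.19 (n = 4) in MASM + TBI, and MASM + TBI differed from TBI by 0.50 (SE 0.17, adjusted p = 0.197). Slco1a6 differed by 0.22 between TBI and control (adjusted p = 0.603).

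Slco1c1, Slco1b2, Slco1a4, Slco1a1, Slco1a3, Slco1a6 and Slco1a5 follow each other in this order among the protein-coding genes of the RefSeq table for GRCr8. The 5 of them above background between TBI and control had 2 differences above 0 (Slco1b2 and Slco1a6) and 3 below it (Slco1a4, Slco1a1 and Slco1a5), and none passed. These paralogs are alike in sequence, and since the files hold no probe sequences, how far a probe of 1 Slco1 gene also reads another was not tested.

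**Figure D2:**
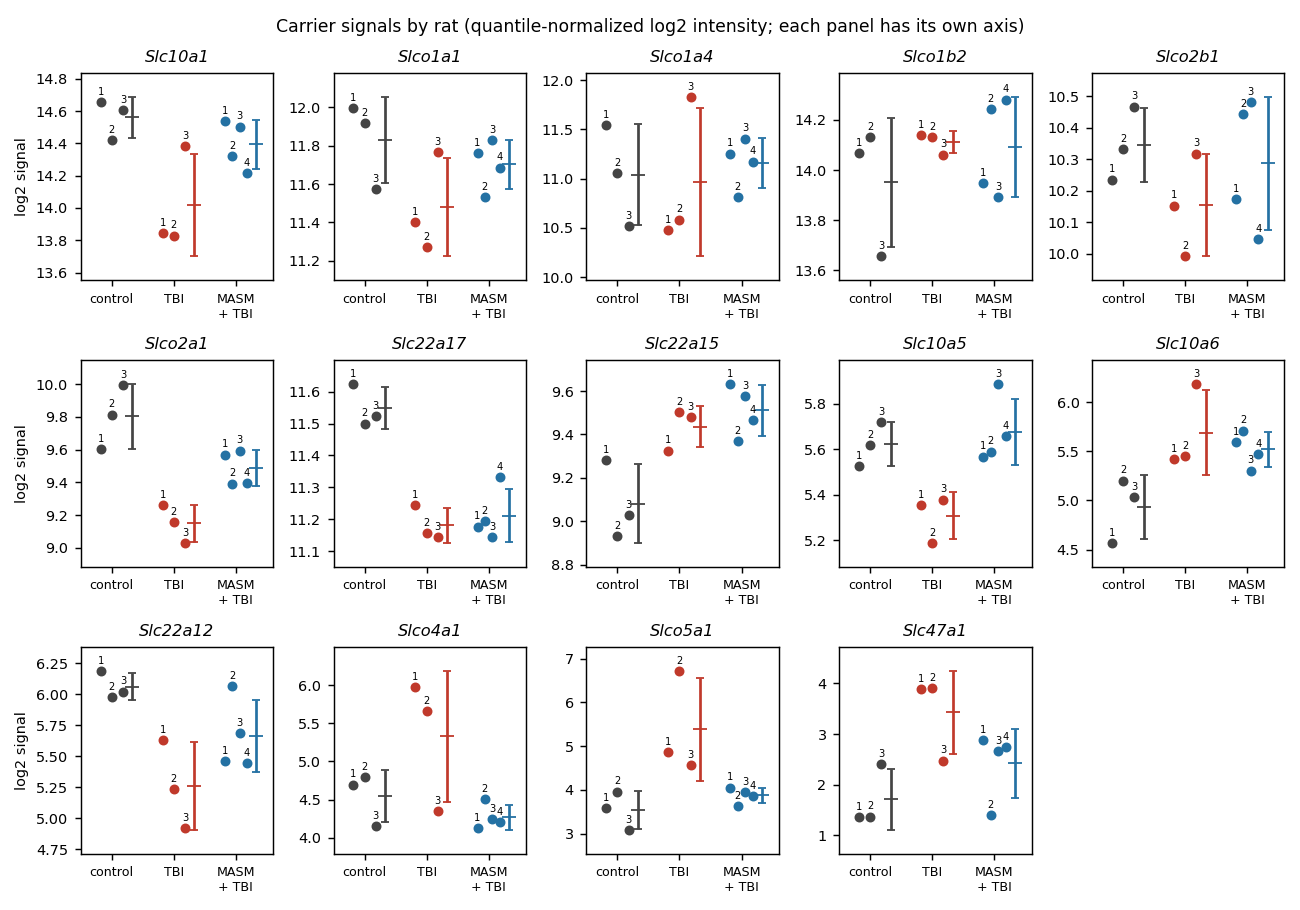
Log2 signal (y axis, a separate scale in each panel) of 14 carriers in every rat, numbered within its group (control, TBI, MASM + TBI), with the group mean and SD (n = 3, 3 and 4) to the right of the points. All TBI rats lie below all control rats for Slco2a1, Slc22a17, Slc10a1, Slc10a5 and Slc22a12, and TBI rat 3 stands near the controls for Slco1a1 and Slco4a1.

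Organic cation and zwitterion carriers came next. Slc22a4, the ergothioneine carrier, had means of 5.98, 5.80 and 5.66 in control, TBI and MASM + TBI, with an adjusted p of at least 0.344. Slc22a5, the carnitine carrier, had means of 5.91, 5.93 and 6.16 by its brighter probe, with an adjusted p of at least 0.668. Its other probe read 0.62 lower in TBI than in control on the log2 scale, a difference of -0.62 (adjusted p = 0.103), and over the 10 rats the probes were unrelated (r = 0.011).

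Slc22a15, a carrier of zwitterions and cations, was higher in every irradiated rat than in any control. Its brighter probe read 9.28, 8.93 and 9.03 in control rats, 9.33, 9.50 and 9.48 in TBI rats and 9.63, 9.37, 9.58 and 9.46 in MASM + TBI rats. TBI differed from control by 0.35 (SE 0.12, adjusted p = 0.113) and MASM + TBI by 0.43 (SE 0.11, adjusted p = 0.0791). The dimmer probe, which followed the brighter over the rats (r = 0.925), gave 0.38 (adjusted p = 0.0517) and 0.41 (adjusted p = 0.0462), so the gene passed in MASM + TBI against control by this probe only.

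Slc22a17, the lipocalin-2 receptor, was lower in every irradiated rat than in any control. It read 11.62, 11.50 and 11.52 in control rats, 11.24, 11.16 and 11.14 in TBI rats and 11.18, 11.19, 11.14 and 11.33 in MASM + TBI rats. It fell in TBI against control by 0.37 on the log2 scale (SE 0.08, 95% interval -0.55 to -0.19, adjusted p = 0.0356), 1.29-fold lower. MASM + TBI differed from control by -0.34 (SE 0.07, adjusted p = 0.0518) and from TBI by 0.03 (-0.14 to 0.20), so a 1.5-fold difference between the irradiated groups lay outside the interval. The call in TBI did not hold with the replicate number as a block (adjusted p = 0.0792), 75th percentile scaling (0.0877), 2 groups per model (0.0942) or the methods' t-test (0.207), or without control rat 1, 2 or 3, TBI rat 2 or 3, or MASM + TBI rat 1 or 2 (adjusted p 0.0535 to 0.100). The lymphocyte markers fell in the same groups, with a summed linear signal of 5 genes of 373 to 497 in control, 134 to 277 in TBI and 103 to 157 in MASM + TBI rats, and their part in the Slc22a17 difference was not tested.

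Of the prostaglandin and thyroid hormone carriers, Slco2a1, which clears prostaglandins from the extracellular space, had the lowest p of all carriers between TBI and control. It read 9.60, 9.81 and 10.00 in control rats, 9.26, 9.16 and 9.03 in TBI rats and 9.57, 9.39, 9.59 and 9.40 in MASM + TBI rats. No 2 groups overlapped, with control highest, TBI lowest and MASM + TBI between them, although control rat 1 (9.60) and MASM + TBI rat 3 (9.59) nearly touched. It fell in TBI by 0.66 on the log2 scale (SE 0.12, 95% interval -0.93 to -0.38, adjusted p = 0.0215), 1.57-fold lower. MASM + TBI differed from TBI by 0.34 (SE 0.11, 0.08 to 0.60, adjusted p = 0.179) and from control by -0.32 (SE 0.11, -0.57 to -0.06, adjusted p = 0.196). The call in TBI did not hold with the replicate number as a block (adjusted p = 0.0801), 2 groups per model (0.0792) or the methods' t-test (0.257), or without control rat 2 (0.0629), control rat 3 (0.0657) or TBI rat 2 (0.0524). Slco2a1 is known in vascular endothelium. Of 4 sinusoidal endothelium markers none passed and the directions were mixed. Against control, Kdr differed by 0.33 in TBI and 0.16 in MASM + TBI, and Lyve1 by 0.53 and 0.54, with every irradiated rat above every control. Cdh5 differed by -0.27 and -0.61, with all MASM + TBI rats below all controls, and Pecam1 by 0.12 and -0.37. Their summed signal, mostly that of Kdr and Lyve1, was 12810 to 15740 in control, 16860 to 20770 in TBI and 14740 to 18560 in MASM + TBI rats, and the part of these cells in the Slco2a1 difference was not tested.

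Slco4a1, which takes up thyroid hormones, read 4.70, 4.79 and 4.16 in control rats, 5.98, 5.65 and 4.36 in TBI rats and 4.12, 4.51, 4.25 and 4.20 in MASM + TBI rats. TBI rats 1 and 2 stood above all other rats and TBI rat 3 did not. TBI differed from control by 0.78 (SE 0.38, adjusted p = 0.259) and MASM + TBI from TBI by -1.06 (SE 0.36, -1.87 to -0.24, adjusted p = 0.185). Without TBI rat 3 these differences were 1.27 (adjusted p = 0.0182) and -1.55 (adjusted p = 0.0123) and both passed. Slco3a1, a prostaglandin and thyroxine carrier, had means of 5.25 ± 0.22 in control, 5.13 ± 0.58 in TBI and 4.76 ± 0.39 in MASM + TBI (SD, n = 3, 3 and 4), with an adjusted p of at least 0.473.

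Slco5a1, a member of the family without a settled substrate, was well above background in 3 of 3 TBI rats and in 0 of 3 control and 0 of 4 MASM + TBI rats. Its signals were 3.58, 3.96 and 3.08 in control rats, 4.86, 6.72 and 4.56 in TBI rats and 4.05, 3.63, 3.95 and 3.85 in MASM + TBI rats. TBI was at least 2.67-fold higher than control (adjusted p = 0.0755) and at least 2.65-fold higher than MASM + TBI (adjusted p = 0.162), where the bound divides the TBI mean by the other group's mean, taking on each array whichever is higher, the gene's own signal or the lowest signal well above background. The bounds rest largely on TBI rat 2, without which they were 1.68-fold (adjusted p = 0.0524) and 1.67-fold (0.206). Neither difference passed the adjusted test with all rats, and the first passed without TBI rat 3 (adjusted p = 0.0444). With normexp background correction the first difference was 0.40 on the log2 scale (adjusted p = 0.136), against 1.84 in the fit without it. The 1.84 is not an estimate of its size, since no control signal was well above background. The TBI arrays had more spots above background than the others, and the part of this in the result was not tested.

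Carriers better known from ileum, bile ducts and kidney were also seen. Slc10a2, the ileal and cholangiocyte bile acid carrier, spread widely within groups, from 5.25 to 8.16 in control, 6.64 to 8.21 in TBI and 5.45 to 7.66 in MASM + TBI, and the interval of the difference between TBI and control ran from -0.93 to 2.88. Slc22a8 (OAT3), an organic anion carrier, had means of 9.81 ± 0.42 in control, 9.07 ± 0.82 in TBI and 8.81 ± 0.61 in MASM + TBI, and MASM + TBI differed from control by -0.99 (-2.01 to 0.03, adjusted p = 0.308). Slc22a13, a nicotinate and urate carrier, read 5.83, 6.18 and 5.64 in control rats and 7.34, 7.06 and 5.33 in TBI rats, and the 4 MASM + TBI rats read 6.07 to 6.39. TBI rats 1 and 2 stood above all other rats and TBI rat 3 below them all, and without TBI rat 3 the gene passed in TBI against control (1.31, adjusted p = 0.00884) and in MASM + TBI against TBI (-0.97, adjusted p = 0.0279).

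Slc22a12 (URAT1), the renal urate carrier, gave opposite answers by its 2 probes. The brighter read 6.19, 5.97 and 6.02 in control rats, 5.63, 5.24 and 4.92 in TBI rats and 5.46, 6.07, 5.68 and 5.45 in MASM + TBI rats, all TBI rats below all controls (-0.80, SE 0.21, adjusted p = 0.067). The dimmer read 3.86, 4.22 and 4.01 in control rats and 4.69, 4.30 and 5.10 in TBI rats, all TBI rats above all controls (0.67, SE 0.26, adjusted p = 0.164). This dimmer probe was well above background in only 1 of 3 control rats and in 3 of 3 TBI rats, so its rise starts from signals that mostly do not count as detected. Over the 10 rats the probes ran against each other (r = -0.577), so no direction is given for this gene.

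**Figure D3:**
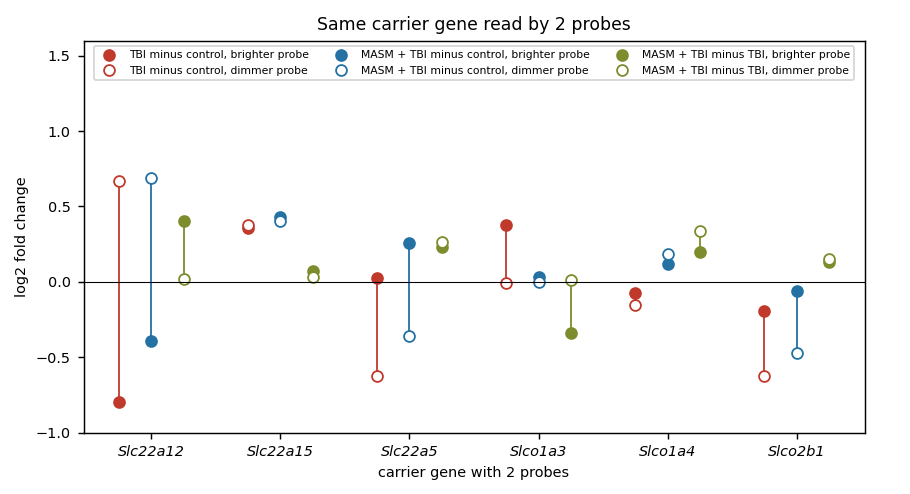
Log2 fold change (y axis) of the 6 carriers with 2 probes (x axis) in the 3 comparisons, filled points for the brighter and open points for the dimmer probe of the same gene. The probes of Slc22a15 and Slco1a4 lie close together, while those of Slc22a12 lie on opposite sides of 0 in TBI minus control (-0.80 and 0.67).

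Of the remaining Slc10a genes, Slc10a6, which carries steroid sulfates, was higher in every irradiated rat than in any control. It read 4.57, 5.20 and 5.04 in control rats, 5.42, 5.45 and 6.18 in TBI rats and 5.59, 5.71, 5.30 and 5.47 in MASM + TBI rats, so the lowest irradiated rat (5.30) lay just above the highest control (5.20). TBI differed from control by 0.75 (SE 0.24, adjusted p = 0.107) and MASM + TBI by 0.58 (SE 0.22, adjusted p = 0.228). Slc10a5, with no settled substrate, read 5.53 to 5.72 in control, 5.19 to 5.38 in TBI and 5.57 to 5.89 in MASM + TBI, so that TBI rats lay below all others. Its differences were -0.31 for TBI against control (adjusted p = 0.128) and 0.37 for MASM + TBI against TBI (0.14 to 0.60, adjusted p = 0.128). Slc10a3 and Slc10a7 differed by at most 0.20 in any comparison.

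Among the other Slc22a genes, Slc22a18, from an imprinted region, had means of 13.60, 13.67 and 13.67 in control, TBI and MASM + TBI and an interval of -0.21 to 0.36 between TBI and control. Slc22a23 had means of 7.98, 8.12 and 8.12. Slc22a25 had means of 6.92, 6.64 and 6.61, and its adjusted p was at least 0.376. None of the 3 passed in any comparison.

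The 12 dim carriers were Slc10a4, Slc22a2, Slc22a3, Slc22a6, Slc22a14, Slc22a22, Slc22a24, Slc47a1, Slco1a3, Slco1c1, Slco4c1 and Slco6c1. Slc22a2, Slc22a3 and Slc22a6 are the kidney-type cation and anion carriers OCT2, OCT3 and OAT1. Slc47a1 (MATE1), which passes organic cations out of the cell in exchange for protons, was well above background in 2 of 3 TBI rats and no other rat. Its signals were 1.36, 1.36 and 2.41 in control rats, 3.89, 3.91 and 2.48 in TBI rats and 2.88, 1.39, 2.65 and 2.74 in MASM + TBI rats (adjusted p = 0.101 for TBI against control, and 0.0462 without TBI rat 3), and no fold is given, since the TBI mean lay under the lowest level that counts as above background on control arrays. Slco4c1 was well above background in no rat, at 2.57, 1.79 and 2.07 in control, 2.46, 1.61 and 1.57 in TBI and 2.76, 2.81, 2.08 and 2.85 in MASM + TBI rats. Scaling to the 75th percentile in place of quantile normalization brought dim carriers into the calls, Slc22a2, Slc22a22 and Slco6c1 lower and Slc47a1 higher in TBI against control, although none of these was above background on all arrays of a group, and 18.2% of all probes passed with that scaling. Of the other dim carriers, Slc22a24 ranged from 3.17 to 5.499 over the 10 rats (well above background in 6), Slc22a6 from 2.50 to 4.40 (in 3), Slc22a14 from 1.37 to 4.07 (in 2) and Slco1c1 from 1.86 to 3.60 (in 1). In no rat well above background were Slc22a2 (1.36 to 1.46), Slc22a22 (1.56 to 1.97), Slco6c1 (1.51 to 1.71), Slco1a3 (1.40 to 2.16), Slc22a3 (1.33 to 2.65) and Slc10a4 (1.24 to 2.85).

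Carrier signals varied between the TBI rats. TBI rat 3 lay within the range of the 3 controls for 11 of the 27 carriers above background, TBI rats 1 and 2 for 7 each, and the 4 MASM + TBI rats for 11 to 13. These counts were not made over all probes, and an unaffected rat would also often lie outside the range of only 3 others. They are therefore not read as a result about the carriers. The median distance from the control mean over the 27 carriers was 0.30 and 0.43 on the log2 scale in TBI rats 1 and 2 and 0.19 in TBI rat 3. With TBI rat 3 left out, Slc10a1 and Slco2a1 (lower) and Slc22a13, Slco4a1, Slco5a1 and Slc47a1 (higher) passed against control, and Slco1a5 (higher), Slc22a13 and Slco4a1 (lower) passed in MASM + TBI against TBI. In the same fit Slc22a17 passed in MASM + TBI against control (-0.34, adjusted p = 0.0491). All 3 TBI rats had the Cdkn1a signal of irradiated rats. Groups of all rats did not overlap for 9 of the 27 carriers in TBI against control (3 higher and 6 lower), for 5 in MASM + TBI against control and for 3 in MASM + TBI against TBI. Of the probes above background on all arrays of a group, 28.9%, 26.3% and 15.6% had groups without overlap in these comparisons.

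Slide 1 allowed a comparison of MASM + TBI with control rats, through MASM + TBI rat 3 alone. With the slide as a fixed block 2 carriers passed, beside 1.31% of all probes in that fit. They were Slc10a4 and Slc22a3, both dim and both highest in that rat (2.85 and 2.65). Slc22a17 differed by -0.40 (adjusted p = 0.174) and Slco2a1 by -0.21 (adjusted p = 0.64) there.

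The other genes of bile formation were taken from 4 lists. Of 8 canalicular exporters, 3 fell in TBI against control, 1 rose and 4 did not pass, where 5.63% of all probes passed. Abcc2 (MRP2), the pump for conjugated bilirubin, fell by 0.93 on the log2 scale (SE 0.10, adjusted p = 0.00313) and in MASM + TBI against control by 0.73 (adjusted p = 0.00834). It read 14.39, 14.19 and 14.30 in control rats, 13.39, 13.29 and 13.40 in TBI rats and 13.39, 13.68, 13.69 and 13.49 in MASM + TBI rats, with every irradiated rat below every control. Abcb4, which moves phosphatidylcholine into bile, rose in TBI by 0.90 (adjusted p = 0.028), a call lost with the replicate number as a block (adjusted p = 0.0698) and without any of the 3 controls or TBI rat 2. Abcb11, the bile salt export pump, differed by -0.39 (adjusted p = 0.195).

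Abcb1a, a P-glycoprotein gene, and Abcg8, a subunit of the sterol exporter, separated the irradiated groups. Abcb1a read 4.86, 4.38 and 4.32 in control rats, 3.11, 3.42 and 3.78 in TBI rats and 5.47, 5.42, 5.71 and 5.52 in MASM + TBI rats, with 2 of 3 TBI rats well above background. The TBI mean of Abcb1a (3.44) lay under the lowest level that counts as above background on control and MASM + TBI arrays. The sizes of its differences from TBI are therefore uncertain. It fell in TBI against control by 1.08 (adjusted p = 0.0209, lost without TBI rat 2 and, at 0.0792, with the replicate number as a block) and was 2.09 higher in MASM + TBI than in TBI (adjusted p = 0.00326), a call kept with each rat left out. With normexp background correction these differences of Abcb1a were -0.15 (adjusted p = 0.118, no longer passing) and 0.39 (0.00981). Abcg8 read 5.66, 5.68 and 5.31 in control rats, 4.37, 4.36 and 4.24 in TBI rats and 6.47, 5.37, 6.03 and 6.48 in MASM + TBI rats. It fell in TBI by 1.23 (adjusted p = 0.0408, lost without any control, any TBI rat or MASM + TBI rat 3 and, at 0.0747, with the replicate number as a block) and was 1.77 higher in MASM + TBI than in TBI (adjusted p = 0.0176, lost without TBI rat 2 or MASM + TBI rat 1). Against control, Abcb1a rose in MASM + TBI by 1.01 (adjusted p = 0.0287, lost without control rat 2 or 3 or any MASM + TBI rat). With normexp Abcg8 no longer passed in TBI against control (-0.25, adjusted p = 0.212) or in MASM + TBI against TBI (0.45, 0.0755), and Abcb1a differed by 0.24 in MASM + TBI against control (0.0216). The partner subunit Abcg5 had an adjusted p of at least 0.391.

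Of 4 basolateral exporters (Abcc3, Abcc4, Abcc6 and Slc51a) 0 passed in any comparison, with 2, 4 and 1 at an unadjusted p under 0.05 in the 3 comparisons in turn, and 0 after adjustment by the methods' t-test. Of 8 genes of bile acid synthesis and conjugation, Cyp7b1, the oxysterol hydroxylase, rose in TBI against control by 1.25 (adjusted p = 0.0343, a call kept without TBI rat 3 or MASM + TBI rat 3 and lost without any other rat), and its spot on the array of MASM + TBI rat 3 was an outlier that the fit left out, so the gene was not in the fit with the replicate number as a block. With normexp it differed by 0.44 (adjusted p = 0.0431). Cyp7a1, the rate-limiting enzyme of the classic pathway, differed by 0.61 (adjusted p = 0.335). Of 12 regulators, Nr1h4, the bile acid receptor FXR, rose in TBI by 0.66 (adjusted p = 0.0431). The xenobiotic receptors Nr1i2 (PXR) and Nr1i3 (CAR) fell by 0.56 (adjusted p = 0.0145) and 0.98 (adjusted p = 0.0327), and Nr5a2 (LRH-1) by 0.45 (adjusted p = 0.0353). Nr1i2 passed with each rat left out, while Nr1h4 passed only without MASM + TBI rat 1 or 3, Nr5a2 only without MASM + TBI rat 1, 2 or 3, and Nr1i3 only without control rat 2 or MASM + TBI rat 2, 3 or 4. With the replicate number as a block none of these 4 passed (adjusted p 0.0607 for Nr1i2, 0.0673 for Nr1i3, 0.0726 for Nr5a2 and 0.0729 for Nr1h4), while the fall of Abcc2 did (0.0332). Nr0b2 had the largest difference of the regulators in TBI against control, -1.57, with all TBI rats below all controls. It did not pass in the main fit (adjusted p = 0.0637) and passed with the replicate number as a block (0.0396). Hnf4a, a factor that many hepatocyte genes depend on, differed by -0.01 and did not pass. In MASM + TBI against control and against TBI, 0 of the 8 synthesis genes and 0 of the 12 regulators passed, with 4 and 1 synthesis genes and 4 and 4 regulators at an unadjusted p under 0.05. Of all probes 2.99% and 1.62% passed in these comparisons, and 16.9% and 17% were under 0.05 unadjusted.

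**Figure D4:**
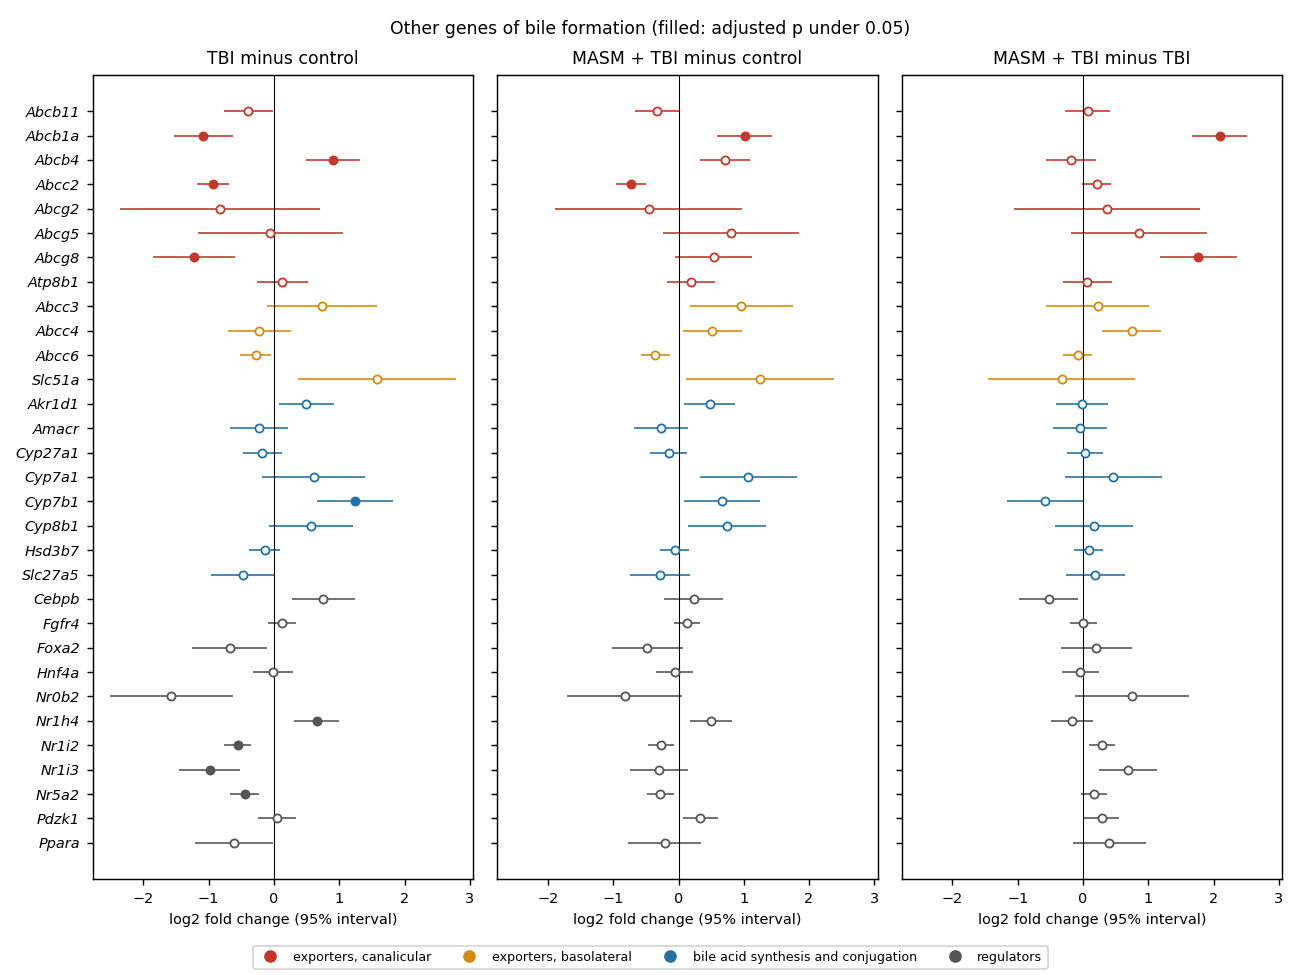
Log2 fold change with its 95% interval (x axis) of 31 other genes of bile formation (y axis), coloured by list, in the 3 comparisons from limma on 10 rats. Filled points have an adjusted p under 0.05, 9 of them in TBI minus control, 2 in MASM + TBI minus control and 2 in MASM + TBI minus TBI.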

How the data were processed

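Cy3-labelled liver RNA of each of 10 rats (control 3, TBI 3 and MASM + TBI 4) was hybridised to a whole rat genome array of its own. The authors deposited linear intensities of every spot, background-subtracted by Feature Extraction 10.7.3.1 and not normalized between arrays. The value matrix of the series was identical to these (largest difference 0). Groups, replicate numbers and the dose came from the sample labels. The column names of the paper's cluster figure place the control and TBI arrays the other way round, and the labels and Cdkn1a give the groups used here. Each array is of a separate rat by its label. Over probes above background on all arrays, deviations from the group mean correlated for all 3 same-numbered pairs of control and TBI rats (0.136 to 0.266, against -0.149 to 0.014 for other pairs), so those numbers were taken as pairs from the data, and the blocked result stands beside the calls it changed. For MASM + TBI the same-numbered correlations ran from -0.341 to 0.362, so its numbers were not shown to be pairs. The replicate block covered all 10 arrays and so used the MASM + TBI numbers as well.

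Of 45018 spots per array, 1639 control spots and 76 to 112 outlier spots were left out, and 0 were saturated. Log2 intensities were quantile normalized, as in the study's methods, and replicate spots were averaged. Of 41012 probes, 16968 obtained a symbol through their accession. Groups were compared with limma 3.58.1 (R 4.3.3, with version 1.17.8 of data.table), with a mean for each group, variances moderated by a prior (1.42 degrees of freedom) and p-values adjusted over all probes (Benjamini-Hochberg), and a moderated F test covered the 3 groups. The fit was tested on simulated data first. Carriers well above background, or passing a threshold, and 6 of 8 hepatic carriers set by name were described singly, and dim carriers by range. Of the genes fitted, 1 carrier and 1 regulator enter the counts and are not reported here. Lists were the exporters, synthesis genes and regulators of bile formation and markers of hepatocytes, cholangiocytes, endothelium, Kupffer cells, lymphocytes and stellate cells. The carriers and lists were chosen with earlier results of these data known. Alternatives were 75th percentile scaling, normexp (offset 50, with median pixel values because the files hold no means), the value matrix, leaving out dim probes, models of 2 groups, a trended, robust prior, the methods' t-test, the replicate number or the slide as a block, every probe of a gene, and leaving out 1 rat at a time. The number of rats limits the precision, and plots were drawn with matplotlib 3.10.9 in Python 3.11.15.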

Additional observations from a re-analysis of the deposited data

Results flagged for a closer look

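In the MASM + TBI group, the only one with 4 rats, 1 rat stood far from the other 3 for 7 probes of the carriers described here. In all, 45 carrier probes were tested, and the share over all probes was not computed. Chance flags about 1 in 20 groups of normally spread values, a rate that may not hold for signals not well above background. Among carriers above background, Slc10a2 was low in rat 2 (5.45). The dimmer probe of Slc22a12 was low in rat 3 (4.17, not well above background there) and the dimmer probe of Slco2b1 high in rat 3 (9.88). Of dim carriers, Slc10a4 (2.85) and Slc22a3 (2.65) were high and Slco4c1 (2.08) low in rat 3, and Slc47a1 was low in rat 2 (1.39). None of these dim signals was well above background in the rat named. Rat 3 accounts for 5 of the 7 probes, and it was the rat of its group on slide 1, beside the controls.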

How the results depend on the processing

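The count of carriers passing the adjusted test between TBI and control (2) became 7 with 75th percentile scaling, 4 without dim probes, 9 with the slide as a random block, and 0 with 2 groups per model, the methods' t-test or the replicate block, and 0 to 6 with 1 rat left out. At the study's threshold (5) it was 9 with 75th percentile scaling, 0 with normexp and 3 with the methods' t-test, and 4 to 7 with 1 rat left out. Between MASM + TBI and control the adjusted count (0) was 2 with normexp, 2 with the slide as a random or a fixed block, 1 with the trended prior and 1 with every probe of a gene, and 0 to 1 with 1 rat left out. At the study's threshold (0) it was 1 with normexp, without dim probes, with 2 groups per model, with the trended prior or with every probe, 2 with the replicate block, 3 with either slide block, and 0 to 3 with 1 rat left out. Between MASM + TBI and TBI the adjusted count (0) was 4 with 75th percentile scaling and 0 to 3 with 1 rat left out, and that at the study's threshold (3) was 8 with 75th percentile scaling, 0 with normexp or the methods' t-test, 5 with the replicate block or the slide as a random block, and 1 to 5 with 1 rat left out. Across the 3 groups the count (2) was 5 with 75th percentile scaling, 1 without dim probes, 1 with the analysis of variance that stands in for the methods' t-test, 0 with the replicate block, 8 with the slide as a random block, and 0 to 5 with 1 rat left out. The causes were not tested. Over all probes the share passing between TBI and control, 5.63%, was 18.2% with 75th percentile scaling, 16.4% with the slide as a random block, 2.57% with the replicate block and 0.0244% with the methods' t-test, and that between MASM + TBI and TBI, 1.62%, was 13.3% with 75th percentile scaling.

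Of single genes under single alternatives, 2746 differences kept their side of the threshold, those that had not passed also moving by less than their SE, 48 passed where they had not, 139 no longer passed, 91 that had not passed moved by their SE or more without passing, and none of those that passed turned its direction. The replicate block used all 10 arrays. With the control and TBI arrays only, an alternative chosen after seeing the data, 0 of 40945 probes passed between TBI and control, carriers, Abcc2 and lymphocyte genes included (adjusted p = 0.19 for both Slco2a1 and Slc22a17), so that fit says nothing about single genes. Against the other slides, TBI rats could not be compared within a slide, and the fixed block was not run for them. The slide correlation of the random block was -0.133.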
